A study of Mus musculus with 18 samples.

Results

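The genes described here are the pore-forming and auxiliary subunits of the voltage-gated sodium channels (*Scn*), the potassium channels of the *Kcna*, *Kcnb*, *Kcnc*, *Kcnd*, *Kcnh*, *Kcnq* and *Kcnt* families and the hyperpolarization-activated cation channels (*Hcn*). They were taken by gene symbol from a table of RNA read counts of mouse brain cell fractions, with transcripts summed per symbol. The rule found 50 genes among 35960 symbols, and 31 of them had at least 5 reads in at least 2 of the 18 libraries and were analysed. Over all symbols, 13552 passed the same filter. The other 19 channel genes were too rarely read for a comparison.

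The 18 libraries came from 3 WT and 3 KIN mice, as 3 fractions with 3 libraries for each genotype. KIN mice are homozygous for an *Atxn2*-CAG100 knockin, a long CAG repeat in the mouse gene for ataxin-2 that models spinocerebellar ataxia type 2, on a C57BL/6 background. WT mice were littermates, all mice were 10 months old, and both sexes were used. From each dissociated brain, CD11b-positive cells (microglia) were taken out first with magnetic beads, then ACSA-2-positive cells (astrocytes), and the neuronal fraction was what remained after negative selection and depletion of CD31-positive cells. The fractions of one brain are therefore not independent, and nothing in the sources used here says which library numbers of different fractions are the same mouse. With 3 mice per genotype, p-values measure the spread between these mice.

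Voltage-gated sodium channels open on depolarization and carry the upstroke of the action potential, with an alpha subunit as the pore and beta subunits that tune gating and anchor the channel at the cell surface. Voltage-gated potassium channels repolarize the membrane, and their families differ in speed, threshold and place on the neuron, so that together they set spike width, firing rate and the return to rest. HCN channels open on hyperpolarization and pass an inward current that steadies the resting potential and supports rhythmic firing. Most of these genes are known chiefly from neurons, and variants in several of them cause inherited ataxias or epilepsies.

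The libraries held 2118317 to 3296398 counts in the WT glial fractions, 2478111 to 2931018 in the KIN glial fractions, 761481 to 1017972 in WT neurons and 1473194 to 2017932 in KIN neurons. The 10 most abundant transcripts took 76% to 85.7% of the counts of a library, and the counts outside them ranged from 109260 to 649157. All 50 channel genes together had 4860 reads, 94.8% of them in the 31 analysed genes. *Aif1* and *Tmem119*, defining markers of microglia, were at 33.2 CPM or more in each microglial library and at 0.512 CPM or less elsewhere, and *Aqp4* of astrocytes was at 19.3 to 48.8 CPM in astrocytes and at 1.19 CPM or less elsewhere. CPM are depth-scaled counts, here with TMM scaling over the 18 libraries together. Neuronal identity was less clear-cut, since 14 neuronal markers summed to 115 to 201 CPM in the neuronal fraction and to 57.9 to 187 CPM in WT astrocytes. Within that sum, *Tubb3* was at 64.7 to 110 CPM in the neuronal fraction and at most at 21.1 CPM elsewhere, while *Snap25* was at 0 to 6.45 CPM there against 7.48 to 23.7 CPM in WT astrocytes. Some libraries stood apart from their group. WT replicate 2 of astrocytes and WT replicate 2 of microglia had the lowest neuronal marker sums among WT glial libraries, 57.9 and 26.8 CPM, and WT replicate 2 of neurons had 261 CPM of oligodendrocyte lineage markers against 24.9 and 27 CPM in the other WT neuronal libraries. *Atxn2* itself was at 3.25 to 12.2 CPM in WT and 5.24 to 10.7 CPM in KIN libraries, but these 3′ reads do not cover the repeat and so do not check the genotype.

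Upstream sequence was at hand for 18 of the 31 analysed genes, with 24 promoter entries (RefSeq, GRCm38.p6). The 250 bases before the start are shown for a sodium channel subunit and a potassium channel that were lower in KIN astrocytes, and for *Hcn2*, whose KIN astrocyte libraries lay above WT. Capitals mark the GC box GGGCGG and the CCAAT box CCAAT on either strand. The windows are chr7:46396218-46396467 (+ strand) for *Kcnc1*, chr9:45138374-45138623 (+ strand) for *Scn4b* and chr10:79716384-79716633 (+ strand) for *Hcn2*.
Kcnc1: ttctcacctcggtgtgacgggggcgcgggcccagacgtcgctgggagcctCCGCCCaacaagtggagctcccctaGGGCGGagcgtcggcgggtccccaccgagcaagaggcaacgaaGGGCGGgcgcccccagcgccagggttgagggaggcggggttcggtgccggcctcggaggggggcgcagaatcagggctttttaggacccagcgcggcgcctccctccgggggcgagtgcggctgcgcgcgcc
Scn4b: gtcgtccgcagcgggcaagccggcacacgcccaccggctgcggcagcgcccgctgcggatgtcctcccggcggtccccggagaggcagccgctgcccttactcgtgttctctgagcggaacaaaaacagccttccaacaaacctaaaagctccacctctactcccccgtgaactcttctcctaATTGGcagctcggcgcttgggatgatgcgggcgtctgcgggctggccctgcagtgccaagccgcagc
Hcn2: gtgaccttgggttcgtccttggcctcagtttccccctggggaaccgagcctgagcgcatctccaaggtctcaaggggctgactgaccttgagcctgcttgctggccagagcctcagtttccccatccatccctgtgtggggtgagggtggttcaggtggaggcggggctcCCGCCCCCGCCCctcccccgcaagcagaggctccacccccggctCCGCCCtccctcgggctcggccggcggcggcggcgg
*Kcnc1* and *Hcn2* held 3 GC boxes each, with a GC content of 74.4% and 70.4%, and *Scn4b* held 1 CCAAT box. Over 32851 promoter windows of the same length, 32.7% held a GC box and 33.8% a CCAAT box, and of the 24 windows of analysed channel genes 9 and 8 did. A TATA box (TATAAA) was in 1 of these 24 and in 12.4% of all windows. The cAMP response element TGACGTCA was in 0 of the 24 and in 1.55% of all windows. A match is a run of letters and not a measured binding site.

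The first question was how the channel genes differed between KIN and WT within the astrocyte fraction. Of the 26 channel genes tested there, 11 were called lower in KIN (42.3%) and 0 higher by edgeR. The criterion was an adjusted p no larger than 0.05 and a log2 fold change of 1 or more in size. At an unadjusted p up to 0.05, 1 was higher (10.4% of all genes), and DESeq2 called 0 higher. Over all 11751 genes tested, 6.42% were called lower and 2.43% higher. The log2 fold change was negative for 24 of the 26 (50.3% over all genes), and its median was -1.46 against 0.00 over all genes. In 16 of them the KIN libraries all lay under the WT libraries, which held for 14.1% of all genes. The 26 include 8 genes that passed the filter on low counts through WT libraries alone and so had to differ. Of these, 3 were called (*Kcnh3*, *Scn1a* and *Scn4b*), and *Kcnc2*, *Kcnh1* and *Kcnq5* were among those not called. In bulk RNA fewer cells of a type cannot be told apart from less RNA per cell. *Kcnc1*, *Kcnt1* and *Scn8a* were among the 6 called under each alternative tried, including each library left out in turn. Leaving out the WT library with few neuronal markers, replicate 2, raised the count to 17, and leaving out WT replicate 1 or KIN replicate 1 lowered it to 7 or 6.

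**Figure D1:**
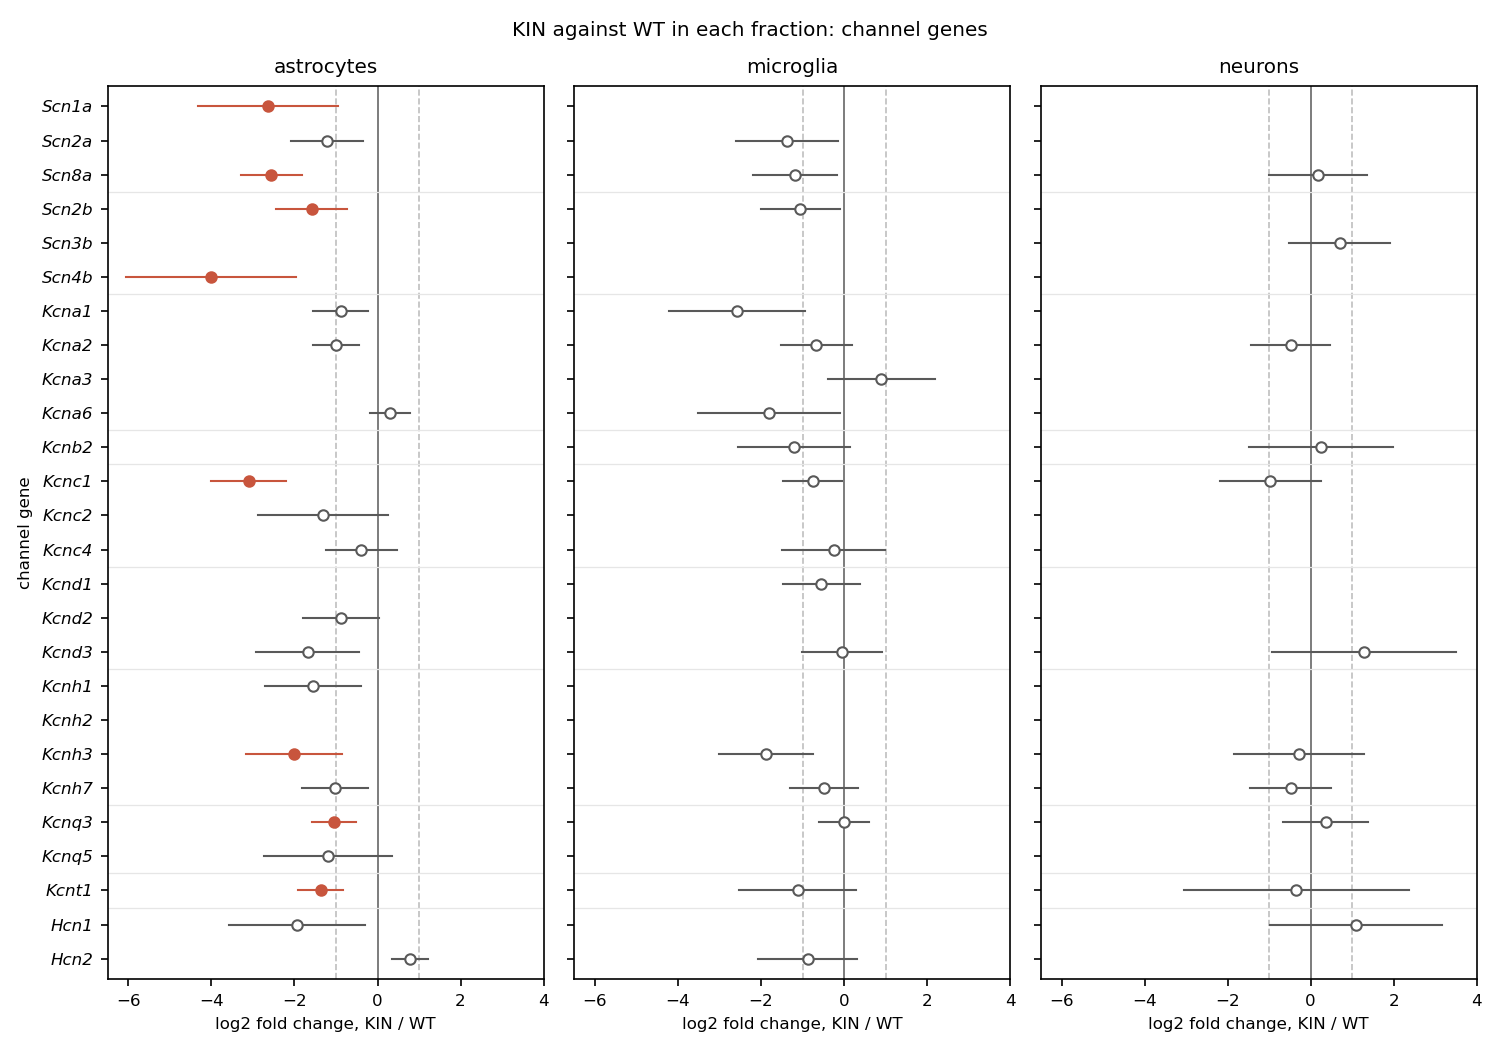
Log2 fold change of KIN against WT (x axis) for 26 of the analysed channel genes (y axis) in the 3 fractions, with 95% intervals as bars. Filled red points passed the call criterion, dashed lines mark a log2 fold change of -1 and 1, and a gene with no point was not tested in that fraction. Called points number 8 in astrocytes, 0 in microglia and 0 in neurons.

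Among sodium channel alpha subunits, 3 of 10 were analysed and 2 were called. *Scn8a* (ENSMUSG00000023033, GRCm39 chr15:100767739-100943819, + strand) encodes the channel of nodes of Ranvier and axon initial segments. It was at 14.8, 8.78 and 9.72 CPM in the WT astrocyte libraries and at 2.3, 1.53 and 1.53 CPM in the KIN libraries. The groups did not overlap, and the 3 KIN libraries were close together. The fall was 5.9-fold (log2 fold change -2.56 ± 0.369 SE, n = 3 and 3, adjusted p = 3.19e-06, edgeR quasi-likelihood test with Benjamini-Hochberg adjustment, as for all adjusted p below). *Scn1a* (ENSMUSG00000064329, chr2:66101122-66271572, - strand), a channel of fast-spiking inhibitory neurons, was at 3.89, 0.325 and 3.45 CPM in WT and at 0, 0.512 and 0.767 CPM in KIN. Its WT replicate 2 lay within the KIN range, so the groups overlapped. The 23 WT reads and 3 KIN reads gave a ratio of 6.77 (95% counting interval 2.05 to 35.2). The call at a log2 fold change of -2.63 ± 0.844 (adjusted p = 0.0305) was lost without any 1 of the KIN libraries and with DESeq2. *Scn2a*, the channel of excitatory neurons, had a log2 fold change of -1.21 ± 0.433 that did not pass (adjusted p = 0.0577).

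Beta subunits were also among the genes called lower in astrocytes. *Scn2b* (chr9:45029080-45041368, + strand), which is disulfide-linked to the pore, was at 7.77, 2.93 and 6.27 CPM in WT and at 1.73, 1.53 and 2.3 CPM in KIN. The groups did not overlap, but the call (2.99-fold, log2 fold change -1.58 ± 0.427, adjusted p = 0.00896) was lost without WT replicate 1, WT replicate 3 or KIN replicate 1 and with DESeq2. *Scn4b* (ENSMUSG00000046480, chr9:45049595-45065452, + strand), the subunit tied to resurgent sodium current, was at 3.53, 0.325 and 4.08 CPM in WT and at 0, 0 and 0.383 CPM in KIN. WT replicate 2 lay below the highest KIN library. With 24 WT reads against 1 KIN read the ratio was 21.2 (95% counting interval 3.46 to 872), and the call (adjusted p = 0.00561) was lost without KIN replicate 1 and with DESeq2.

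The Kv3 family (*Kcnc*) carries the fast, high-threshold potassium current that lets neurons fire at high rates. *Kcnc1* (ENSMUSG00000058975, chr7:46045674-46106392, + strand) was at 24.7, 3.25 and 20.7 CPM in WT and at 1.44, 1.02 and 3.07 CPM in KIN. WT replicate 2 was close to the KIN libraries and the other WT libraries were far above them. The fall was 8.57-fold (log2 fold change -3.10 ± 0.45, adjusted p = 3.61e-06), and without WT replicate 2 the log2 fold change was -3.59. *Kcnc2* and *Kcnc4* had log2 fold changes of -1.31 and -0.39 and did not pass.

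The Kv7 family (*Kcnq*) makes the M-current, a slow brake on repetitive firing. *Kcnq3* (chr15:65858236-66158491, - strand) was at 15.5, 13.7 and 16.3 CPM in WT and at 6.91, 6.14 and 8.82 CPM in KIN. The 3 WT libraries agreed closely, and the fall of 2.08-fold (log2 fold change -1.06 ± 0.264, adjusted p = 0.00449) was lost as a call without KIN replicate 1 or 2 and with DESeq2. *Kcnq5* was at -1.19 and did not pass.

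*Kcnt1* (ENSMUSG00000058740, chr2:25753746-25809578, + strand), a potassium channel opened by intracellular sodium, was at 20.1, 14.6 and 18.5 CPM in WT and at 6.63, 3.58 and 9.97 CPM in KIN. The groups did not overlap, and the fall was 2.58-fold (log2 fold change -1.37 ± 0.275, adjusted p = 0.000433). *Kcnh3* (chr15:99122225-99140710, + strand), a channel of the ELK branch of forebrain neurons, was at 4.95, 1.63 and 4.39 CPM in WT and at 0.288, 1.02 and 1.53 CPM in KIN. WT replicate 2 was only just above the highest KIN library, and the call (4.03-fold, adjusted p = 0.0149) was lost without WT replicate 1, WT replicate 3 or KIN replicate 1 and with DESeq2. *Kcnh1*, of the EAG branch, and *Kcnh7*, of the ERG branch, had log2 fold changes of -1.55 (adjusted p = 0.0687) and -1.02 (adjusted p = 0.0828), with no overlap between the groups. *Kcnh1* entered the test through WT libraries alone and so had to differ.

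Families with no call in astrocytes were Kv1, Kv2, Kv4 and HCN. *Kcna2*, an axonal channel of the juxtaparanode, was at 13.1, 13.3 and 12.2 CPM in WT and at 5.47, 6.14 and 8.05 CPM in KIN. The groups were well apart, but the log2 fold change of -0.99 ± 0.276 (adjusted p = 0.0112) was just short of the minimum of 1, and 6 of 16 alternatives put it past the criterion. *Kcna1*, the partner of *Kcna2* in the same axonal channels, had a log2 fold change of -0.89 (adjusted p = 0.0678). *Kcnd3*, an A-type channel of the Kv4 family, was at -1.68 ± 0.616 (adjusted p = 0.0629).

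Only 2 of the 26 genes had a positive log2 fold change, *Hcn2* and *Kcna6*. *Hcn2* (ENSMUSG00000020331, chr10:79552120-79571948, + strand), a pacemaker channel, was at 22.6, 21.1 and 22.9 CPM in WT and at 43.5, 40.4 and 31.4 CPM in KIN. Each KIN library lay above each WT library, the one channel gene of which this held, against 13.8% of all genes. The log2 fold change of 0.78 ± 0.215 (adjusted p = 0.0107) did not reach the minimum of 1 and ranged from 0.68 to 0.91 over the alternatives, with an adjusted p of 0.061 under DESeq2. *Kcna6* (chr6:126685292-126717644, - strand), a Kv1 channel, was at 12.7, 16.9 and 11 CPM in WT and at 15.6, 20.5 and 15 CPM in KIN. Its groups overlapped (log2 fold change 0.29 ± 0.243, 95% interval -0.19 to 0.78, adjusted p = 0.496). Markers of other cells moved in the same libraries. The 9 oligodendrocyte lineage markers summed to 415, 633 and 422 CPM in WT astrocytes and to 739, 744 and 745 CPM in KIN astrocytes, and *Cnp* and *Mog* were called higher (log2 fold change 1.12 and 1.27). The 6 ependymal and choroid plexus markers summed to 119, 99.8 and 116 CPM in WT and to 254, 150 and 214 CPM in KIN. Of them 5 of 6 lay above WT without overlap and 1 was called higher. The remaining one, *Kl*, lay below WT without overlap, at 4.32, 4.09 and 3.45 CPM against 8.83, 4.55 and 7.53 CPM. The part of either list in the *Hcn2* result was not tested.

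**Figure D2:**
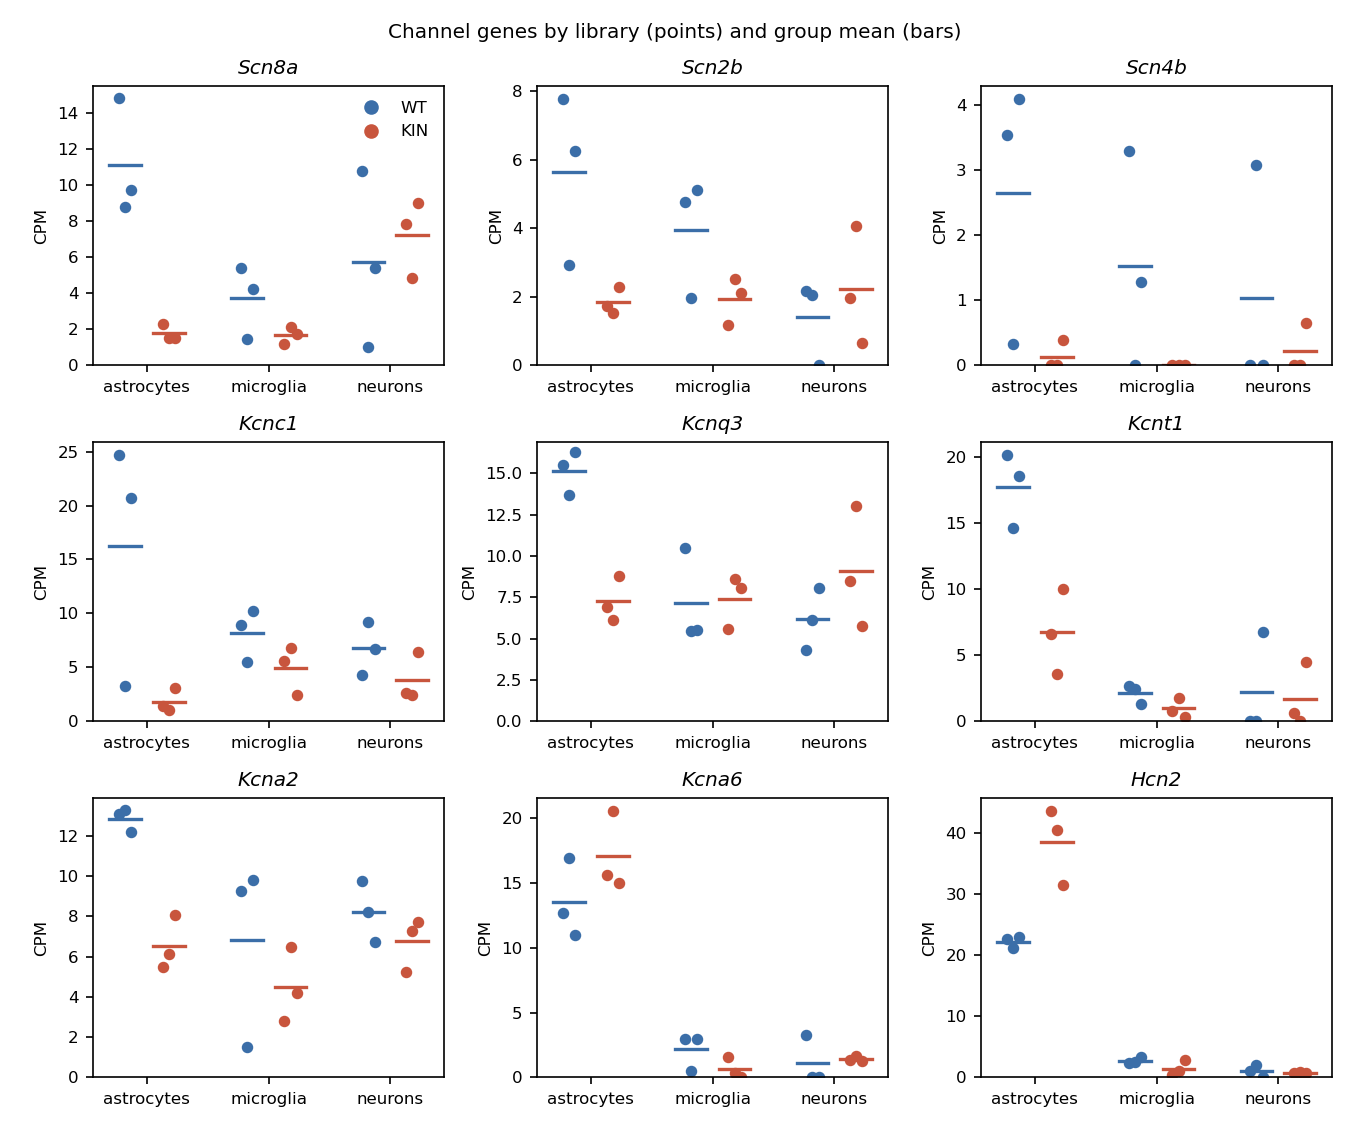
CPM (y axis) of 9 channel genes in each library (points) by fraction (x axis), with the group mean as a bar, WT in blue and KIN in red. *Hcn2* was at 31.4 to 43.5 CPM in KIN astrocytes and 21.1 to 22.9 CPM in WT astrocytes, while *Scn8a* was at 1.53 to 2.3 CPM and 8.78 to 14.8 CPM.

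Neuronal markers fell in the same astrocyte libraries. Of 13 tested, 11 were called lower, with a median log2 fold change of -2.09. *Tubb3* was at 7.77, 5.53 and 10 CPM in WT and at 10.1, 14.3 and 21.1 CPM in KIN, so that each KIN library lay above each WT library (log2 fold change 0.92, adjusted p = 0.0217, under the fold minimum). The 14 markers summed to 187, 57.9 and 152 CPM in WT astrocytes and to 44.4, 39.4 and 63.7 CPM in KIN astrocytes, with *Slc17a6* at 0 in each KIN library. The 50 channel genes summed to 254, 152 and 231 CPM in WT and to 118, 112 and 118 CPM in KIN, or to 218, 114 and 197 CPM against 59.3, 50.6 and 72.1 CPM without *Hcn2* and *Kcna6*. WT replicate 2 was low in both sums. For every 100 CPM of neuronal markers there were 136, 262 and 152 CPM of all 50 channel genes in WT and 267, 283 and 186 CPM in KIN. Without *Hcn2* and *Kcna6*, left out because they alone among the tested genes had positive values, there were 117, 197 and 129 CPM in WT and 134, 129 and 113 CPM in KIN. Both pairs of ranges overlap. The part of the neuronal markers in the lower channel genes was not tested. The 8 astrocyte markers summed to 557, 800 and 540 CPM in WT and to 393, 400 and 391 CPM in KIN. Of them 3 were called lower, among them *Slc1a2* and *Gja1* (log2 fold change -1.34 and -1.39), while *Gfap* and *S100b* lay above WT without overlap (0.80 and 0.93, under the fold minimum).

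**Figure D3:**
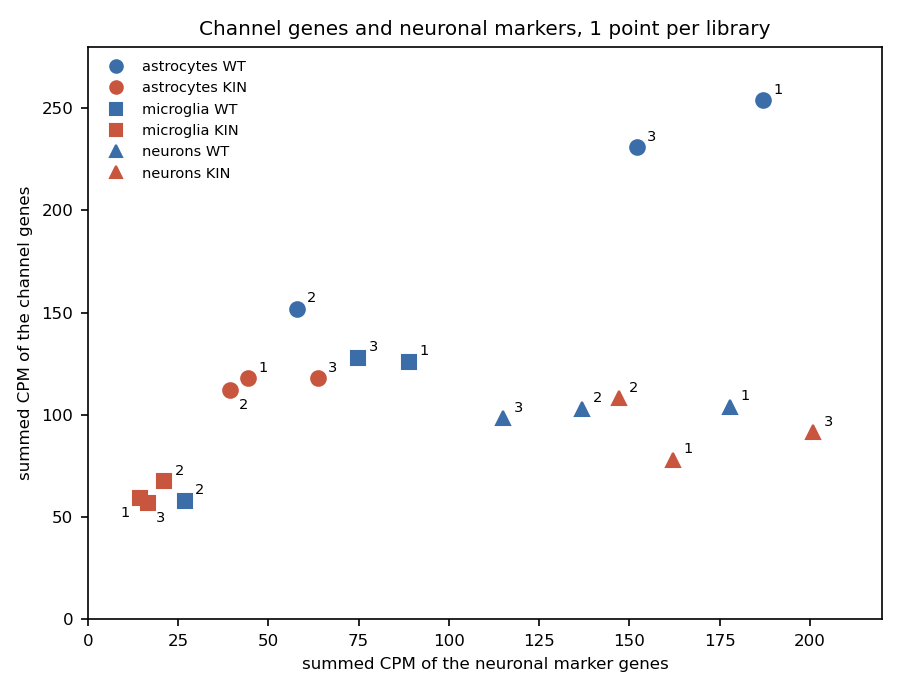
Summed CPM of the 50 channel genes (y axis) against that of 14 neuronal marker genes (x axis), 1 point per library, with the replicate number beside it, the shape for the fraction and the colour for the genotype. KIN astrocytes lie at 39.4 to 63.7 CPM of neuronal markers and WT astrocyte replicate 2 at 57.9, below the other WT astrocyte libraries.

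In the microglial fraction 1 of 21 tested channel genes was called, lower in KIN (0.785% of 10831 genes were called lower and 0.739% higher). At an unadjusted p up to 0.05, 0 channel genes were higher (6.19% of all genes), and DESeq2 called 0. The median log2 fold change of the 21 was -1.05 (-0.01 over all genes), and in 5 of them KIN lay below WT without overlap (7.55% over all genes). Without WT replicate 2 there were 4 calls, and without WT replicate 1, WT replicate 3 or any KIN replicate there were 0.

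Other channel genes had large but uncalled differences in microglia. *Kcnh3* was at 3.88, 2.98 and 4.26 CPM in WT and at 1.19, 1.44 and 0.351 CPM in KIN, with no overlap (log2 fold change -1.88 ± 0.549, adjusted p = 0.0835). It is 1 of 6 genes that entered the microglial test through WT libraries alone and so had to differ. *Scn4b* had 14 reads in WT and 0 in KIN, at least 4.93-fold lower against a floor of 3 reads over the group. *Kcnd2*, an A-type channel, had 12 and 0, at least 4.23-fold lower. In both genes 11 of the WT reads were in WT replicate 1, and without it neither bound remains. Both had too few reads per library for the test. *Kcnq3* had a log2 fold change of 0.00 (95% interval -0.61 to 0.61). Neuronal markers were again lower in KIN, at 89, 26.8 and 74.9 CPM in WT and 14.3, 21.2 and 16.5 CPM in KIN, with 6 of 13 called lower. Per 100 CPM of neuronal markers there were 142, 217 and 170 CPM of all 50 channel genes in WT microglia and 414, 319 and 345 CPM in KIN microglia, or 136, 206 and 162 against 400, 312 and 328 CPM without *Hcn2* and *Kcna6*. In microglia the KIN ratios lay above the WT ratios without overlap. Astrocyte markers summed to 27.5, 23.3 and 29.8 CPM in WT and to 16.3, 19 and 16.5 CPM in KIN microglia, with 1 of 4 tested called lower, and oligodendrocyte lineage markers to 34.6, 33.2 and 31.5 CPM against 22.2, 21.2 and 20.7 CPM, with 0 of 5 called. Of 4 endothelial markers tested 1 was called lower, while their sums overlapped. The part of these markers in the microglial values was not tested.

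In the neuronal fraction 12 channel genes were tested and 0 were called in either direction by edgeR and 0 by DESeq2 (over all 6765 genes, edgeR called 0.0739% lower and 0% higher). At an unadjusted p up to 0.05 there were also 0, against 2.38% of all genes lower and 2.66% higher. The median log2 fold change was -0.06 (0.04 over all genes), and values ran from -1.0 to 1.28. In 1 of the 12 the KIN libraries all lay below WT, as in 2.22% of all genes. *Scn8a* was at 10.8, 1.03 and 5.39 CPM in WT and at 7.86, 4.87 and 9.03 CPM in KIN (log2 fold change 0.17, 95% interval -1.0 to 1.35). The groups overlapped throughout. *Kcnc1* was at 4.34, 9.23 and 6.74 CPM in WT and at 2.62, 2.43 and 6.45 CPM in KIN (log2 fold change -0.97, 95% interval -2.18 to 0.24). The most-read channel genes of this fraction, *Kcnq3*, *Kcnh7* and *Kcna2*, had log2 fold changes of 0.36, -0.48 and -0.48. The 6 neuronal libraries held 73 to 142 channel reads each, and the interval of *Kcnt1* was as wide as -3.06 to 2.37, which includes its astrocyte value of -1.37. The intervals of *Scn8a* and *Kcnc1* did not reach their astrocyte values of -2.56 and -3.10. Neuronal markers summed to 178, 137 and 115 CPM in WT and to 162, 147 and 201 CPM in KIN, and 0 of 9 tested were called. In 3 of the 9, *Eno2*, *Gad2* and *Tubb3*, the KIN libraries all lay above WT, as in 11.5% of all genes.

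Whether the genotype effect itself differed between fractions was tested with an interaction term. Between microglia and astrocytes, 2 of 30 channel genes differed, among them *Kcnc1* (difference of log2 fold changes 2.33 ± 0.641, adjusted p = 0.0482), both less negative in microglia (0.776% of all genes were called in that direction and 0.369% in the other). In the other direction there were 0 channel genes by edgeR and DESeq2, and 4 at an unadjusted p up to 0.05 (6% of all genes). For *Hcn2* the difference was -1.65 (95% interval -2.80 to -0.50, adjusted p = 0.147). Between neurons and astrocytes, 1 of 29 differed, *Scn8a* (2.92 ± 0.673, adjusted p = 0.00734, against 0.914% of all genes, with 0.251% in the other direction). In that other direction 0 channel genes were called by edgeR or DESeq2, also at an unadjusted p up to 0.05 (3% of all genes). The *Scn8a* call held without each library in turn but not with DESeq2, whereas that of *Kcnc1* between microglia and astrocytes was lost in 12 of 21 alternatives. For *Kcnc1* between neurons and astrocytes the difference was 2.30 (adjusted p = 0.105).

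**Figure D4:**
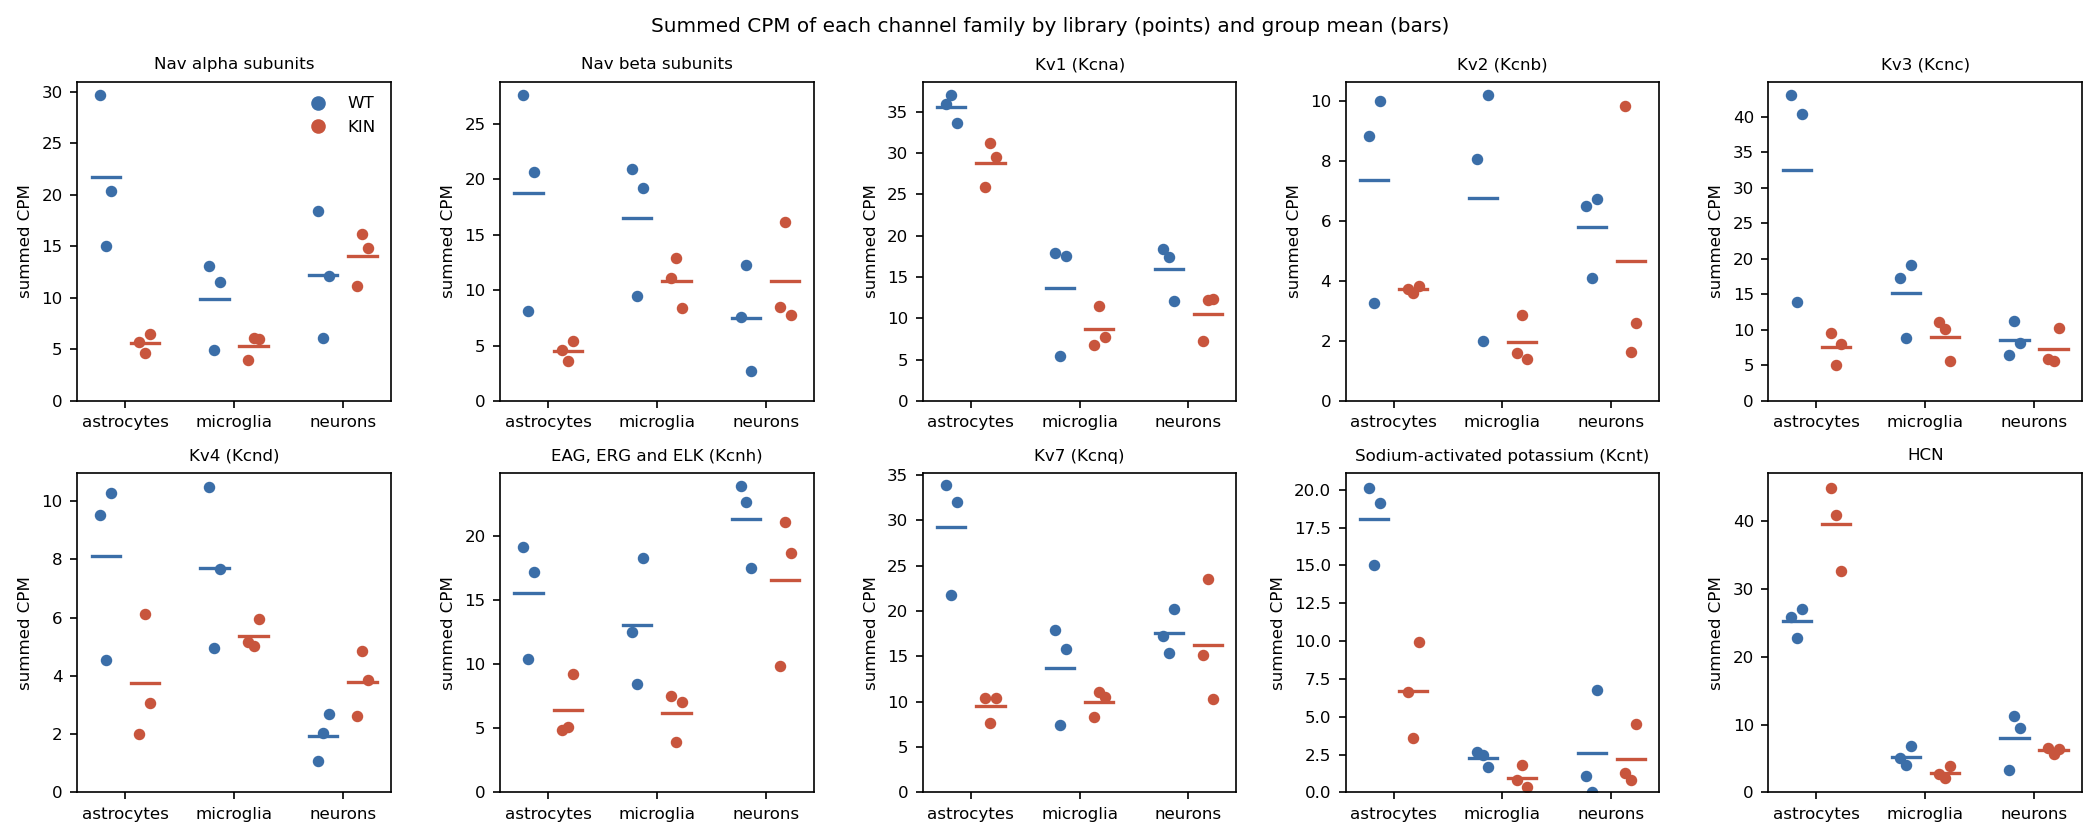
Summed CPM of each of the 10 channel families (y axis) in each library (points) by fraction (x axis), with group means as bars, WT in blue and KIN in red. Sodium channel beta subunits sum to 3.58 to 5.37 CPM in KIN astrocytes against 8.13 to 27.6 CPM in WT astrocytes, and HCN channels to 32.6 to 44.9 CPM against 22.8 to 27 CPM.

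In a fit of the 3 fractions together that allowed for their different levels, 12 of 31 channel genes were called lower in KIN (38.7%, against 1.56% of 13552 genes) and 0 higher (0.517%) by edgeR. At an unadjusted p up to 0.05, 0 were higher (8.19% of all genes), as by DESeq2. This fit treats the fractions of one brain as separate samples. Of the 31, 5 passed the filter through WT libraries alone and so had to differ, 3 of them called (*Kcnh1*, *Scn1a* and *Scn4b*). *Scn4b* had 41 reads in the 9 WT libraries and 2 in the 9 KIN libraries, a ratio of 21.6 after scaling (95% counting interval 5.61 to 184, adjusted p = 0.000749 in the fit). *Kcnh1* had a log2 fold change of -2.11 ± 0.487 (adjusted p = 0.00447). *Scn1a*, *Kcnc1*, *Kcnh3*, *Scn8a*, *Kcna1* and *Kcnt1* fell by 1.17 to 1.80 on the log2 scale. *Kcna1* and *Kcnh1* were called here but in no single fraction. The *Kcna1* call was lost without WT replicate 1, WT replicate 3 or any KIN replicate, and that of *Kcnh1* without KIN replicate 1. *Kcnh1* was at 2.17, 7.18 and 5.39 CPM in WT neurons and at 0, 0 and 1.93 CPM in KIN neurons, and at 1.79, 0 and 1.7 CPM in WT microglia against 0, 0 and 0.351 CPM in KIN microglia. *Hcn2* (0.43, adjusted p = 0.419) and *Kcna6* (-0.01) were not called. *Kcnc1* and *Scn4b* were called in each alternative that could test them, and the count was 4 without WT replicate 1, 5 without KIN replicate 1, 6 without WT replicate 3 and 7 without KIN replicate 2.

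A further question was where in the WT brain these channels were read. Astrocytes had 9 of 31 channel genes called higher than microglia (13.1% of all genes were) and 1 lower (11.3%). *Hcn2* stood out at 22.6, 21.1 and 22.9 CPM in WT astrocytes against 2.39, 2.48 and 3.41 CPM in WT microglia (log2 fold change 3.00 ± 0.346, adjusted p = 9.17e-13). *Kcnt1* was at 14.6 to 20.1 CPM against 1.28 to 2.69 CPM (2.98 ± 0.408, adjusted p = 7.91e-10), and *Kcna6* at 11 to 16.9 CPM against 0.496 to 2.99 CPM (2.52 ± 0.396, adjusted p = 6.55e-08). None of these groups overlap. Markers of other cells differed between the same libraries, with oligodendrocyte lineage markers at 415 to 633 CPM in WT astrocytes against 31.5 to 34.6 CPM in WT microglia and neuronal markers at 57.9 to 187 against 26.8 to 89 CPM, and their part in these differences was not tested. *Kcna1*, *Kcnq3* and *Scn8a* were also higher in astrocytes, with log2 fold changes of 1.02 to 1.61. *Kcnc2* had 17 reads against 2, a ratio of 7.21 (95% counting interval 1.71 to 64.3). *Kcnd1*, an A-type channel, was the gene called higher in microglia, at 2.98 to 3.97 CPM against 0.353 to 1.25 CPM in astrocytes (log2 fold change -1.83 ± 0.647, adjusted p = 0.0238). Its call was lost without WT replicate 1 of astrocytes or WT replicate 1 or 2 of microglia. The *Kcnq3* call held in 6 of 12 alternatives and the *Kcnc2* call in 4 of 9. Between the KIN groups 6 channel genes were higher in astrocytes (16.7% of all genes were) and 4 lower (15.5%).

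Neurons had 11 channel genes called lower than astrocytes in WT (12.3% of all genes were) and 0 higher (6.17%) by edgeR or DESeq2. At an unadjusted p up to 0.05, 2 were higher (10.1% of all genes). *Hcn2* had 202 reads in WT astrocytes and 3 in WT neurons, a ratio of 19.5 after scaling (95% counting interval 6.59 to 95.5), and *Kcna6* had 123 and 3, a ratio of 11.9 (3.98 to 58.5). Both calls held in each alternative, but the sizes moved. All 3 *Kcna6* reads were in WT replicate 1 of neurons, without which the fitted log2 fold change of -7.97 is no bound, and it was -2.89 without replicate 2 against -3.51 with all libraries. For *Hcn2*, -4.22 became -5.10 without WT replicate 2 of neurons and -5.68 between the KIN groups. *Kcnc4*, the Kv3 member at 39 reads in astrocytes and 0 in neurons, was at least 3.77-fold lower in neurons, and *Kcnd2*, at 36 and 0, at least 3.48-fold lower. *Kcnt1* was at 0, 0 and 6.74 CPM in WT neurons (log2 fold change -3.18 ± 0.574, adjusted p = 5.12e-06). All 5 of its WT neuronal reads were in replicate 3, without which 0 remained and the fitted value of -8.36 is no bound, and the value was -2.57 without replicate 1 and -2.54 without replicate 2. The call held in each of these fits. The calls of *Kcna1*, *Kcnc1*, *Kcnq3* and *Scn2b* had log2 fold changes of -1.24 to -2.29, of which *Kcnc1*, *Kcnq3* and *Scn2b* turned positive between the KIN groups. The *Scn2b* call held in 2 of 11 alternatives and that of *Kcnc1* in 5 of 12, and that of *Kcna1* was lost without WT replicate 1 or 3 of neurons and that of *Kcnq3* without WT replicate 1 of neurons. All 4 *Kcna1* reads in WT neurons were in replicate 2. Between the KIN groups 7 channel genes were lower in neurons (13.9% of all genes were) and 7 higher (12.4%). Against microglia, 2 genes were lower in neurons (11.7% of all genes were) and 0 higher (5.52%) by edgeR or DESeq2, with 2 higher at an unadjusted p up to 0.05 (10.6%). The lower genes included *Kcnc4* (17 reads against 0, at least 1.94-fold), whose call was lost in 6 of 11 alternatives. Between the KIN groups 1 was lower (12.5% of all genes) and 6 were higher (10.5%). WT neuronal libraries were the shallowest, and red blood cell markers summed to 112 to 519 CPM and ependymal and choroid plexus markers to 156 to 470 CPM in the neuronal fraction. Most of the latter sum was *Ttr* (148 to 445 CPM), while *Tmem212* was at 0 in each neuronal library. *Foxj1* and *Ccdc153* were at 0 to 3.87 CPM there, against 8.12 CPM or more in each astrocyte library. The part of depth and of these markers in these differences was not tested.

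The 50 genes had 223 listed transcripts, 191 with reads, and 80% of the reads were in transcripts annotated as protein-coding, 7.88% in retained introns and 2.61% in transcripts marked for nonsense-mediated decay. Of 40 transcripts of these genes tested in astrocytes, 15 were called lower (5.86% of all transcripts tested). They belong to 10 genes, with 1 or 2 transcripts each. Both *Kcnc1* transcripts called were protein-coding, ENSMUST00000025202 with 84.1% of the gene's reads (log2 fold change -2.96 ± 0.399, adjusted p = 5.81e-09) and ENSMUST00000160433 (-4.06 ± 0.951). *Kcnt1* was called through ENSMUST00000131529 (-1.38 ± 0.463, adjusted p = 0.0389), a retained intron transcript. *Kcna2* passed at this level through ENSMUST00000038695 (-1.16 ± 0.317, adjusted p = 0.00829), although the gene sum did not. Reads of a 3′ method place few isoforms apart with certainty.

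Exons of 23 of the 50 genes overlap an exon of another gene in the annotation, all on the opposite strand, and reads were counted without regard to strand. Of the overlapping genes, 26 are long non-coding RNAs that are not listed in the counts used here, so their reads were not analysed here. In 4 cases the other gene is listed and had reads. *Kcnh7* shares up to 2886 bases of exon with *Gca*, which had 27 reads over the 18 libraries, and *Kcnh3* shares 14 bases with *Mcrs1*. *Hcn3* overlaps *Pklr* and *Scn4a* overlaps *Prr29*. Values of all 23 genes are uncertain to that extent.

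Channel partner genes were read beside the channels, 41 genes chosen for their known role at the axon initial segment and node or as auxiliary subunits. In astrocytes 7 of 24 tested were called lower (6.42% of all genes) and 0 higher (2.43%), with a median log2 fold change of -0.70 (0.00 over all genes). *Sptbn4*, the spectrin of initial segments and nodes, was at 16.6, 4.55 and 17.6 CPM in WT and at 3.74, 3.07 and 2.68 CPM in KIN (log2 fold change -2.0 ± 0.366, adjusted p = 0.000136). Its groups did not overlap, with WT replicate 2 nearest to KIN. *Ank2*, an axonal ankyrin, fell by 1.17 on the log2 scale (adjusted p = 0.000129), and the Kv1 beta subunits *Kcnab1* and *Kcnab2* by 2.59 and 2.14. *Kcnab1* had fewer than 5 reads in each KIN library, so it entered the test through WT libraries alone and had to differ. Its call was lost with DESeq2, and that of *Kcnab2* without WT replicate 1. *Dpp6* and *Dpp10*, auxiliary subunits of Kv4 channels, fell by 1.15 and 1.38, and *Fgf13*, a sodium channel modulator, by 1.79. The *Dpp6* call was lost in 6 of 16 alternatives and the *Fgf13* call in 3, and the groups of both overlapped. *Ank3*, the ankyrin that anchors sodium and Kv7 channels at the initial segment, was at 42.3 to 47 CPM in WT and 38.7 to 42.9 CPM in KIN astrocytes and was not called. *Cntn2*, a contactin of the juxtaparanode, was at 30, 33.5 and 29.8 CPM in WT and at 64.8, 48.1 and 54.1 CPM in KIN. Each KIN library lay above each WT library (log2 fold change 0.83 ± 0.21, adjusted p = 0.00497, under the fold minimum).

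In microglia 3 of 21 partners were called lower (0.785% of all genes). Of these, *Sptbn4* and *Kcnab2* had fewer than 5 reads in each KIN library. They entered the test through WT libraries alone and so had to differ. *Sptbn4* was at 8.66, 1.98 and 8.51 CPM in WT and at 0.795, 1.08 and 1.05 CPM in KIN (log2 fold change -2.71 ± 0.525, adjusted p = 0.00691). *Kcnab2* fell by 2.50 (adjusted p = 0.0152) and *Nfasc*, a nodal adhesion molecule, by 1.58 (adjusted p = 0.0462). All 3 calls were lost without any 1 of the KIN libraries and with DESeq2, and those of *Kcnab2* and *Nfasc* also without WT replicate 1 or 3. The *Nfasc* call was also lost with the replicate number as a block and with a filter at a mean of at least 10 counts. In neurons 1 of 12 was called lower (0.0739% of all genes), *Ank3*, at 4.34, 214 and 17.5 CPM in WT and 5.24, 8.92 and 12.3 CPM in KIN. WT replicate 2, the library with high oligodendrocyte lineage markers, carried that difference. The log2 fold change of -3.32 ± 0.669 (adjusted p = 0.049) became -0.48 (adjusted p = 0.902) without it. *Kcnab2* was at 1.08, 1.03 and 0 CPM in WT neurons and at 5.9, 4.87 and 5.16 CPM in KIN neurons, the reverse of its order in both glial fractions (log2 fold change 2.49 ± 0.945, adjusted p = 0.826, not called). With 2 reads in WT neurons and 23 in KIN neurons, it entered this test through KIN libraries alone and so had to differ. The WT neuronal libraries were also the shallowest.

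The 19 channel genes below the filter were 7 of 10 sodium channel alpha subunits, 4 each of the Kv1 and *Kcnh* families, 2 HCN genes and 1 each of *Kcnq* and *Kcnt*. *Scn10a* and *Scn11a*, channels of sensory neurons, had 3 and 2 reads, all in KIN replicate 2 of neurons. *Kcnh8* had 2 reads and *Kcnq1*, the cardiac member of its family, had 3. *Hcn4*, the pacemaker of the heart, had 18 reads, 10 of them in the neuronal fraction. These counts are too low to tell the groups apart.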

How the data were processed

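RNA was sequenced by a 3′ method (MACE-seq with polyadenylation). The authors collapsed PCR duplicates by unique molecular identifiers, trimmed with Cutadapt 4.6, mapped to mm39 with Bowtie2 2.4.4 and counted without strand with HTSeq 2.0.2, and the deposited counts are whole numbers per transcript, not normalized. They were summed by symbol; 137 lines had none. Another 36 per-sample columns and 20 columns of the authors' own comparisons (fold changes and p-values) were not used.

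Genes reaching 5 reads in 2 or more of the libraries fitted were tested with edgeR 4.0.16 (R 4.3.3): TMM scaling, quasi-likelihood test, Benjamini-Hochberg adjustment over all genes, 1 fit of 6 libraries per fraction. Standard errors were derived from each log2 fold change with its F value. Counting intervals are exact and cover counting error only, and folds against 0 reads use a floor of 3 reads per group. Scripts were tested on simulated data.

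Named channel genes were those called in a KIN comparison, the most read of a family with none called, and the 3 most read per fraction. Any other was named after its values were seen. Some channel genes enter the counts and sums but are not reported here by name. The channel genes and all lists were chosen with earlier results of these data known. Alternatives were DESeq2 1.42.0, other scalings, filters and criteria, a replicate block, single transcripts and each library left out. TMM without the 10 most abundant genes and sums over fractions were chosen after seeing the data.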

Additional observations from a re-analysis of the deposited data

Results flagged for a closer look

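Tested differences between fractions in the KIN effect were set apart here, each as a difference of log2 fold changes from an interaction term in edgeR. Between microglia and astrocytes these were *Kcnc1* at 2.33 (adjusted p = 0.0482, 1.91 to 2.85 over the alternatives) and the HCN partner *Pex5l*, which regulates HCN trafficking, at -3.09 (adjusted p = 0.0482, -3.49 to -2.43). *Pex5l* was at 12.4, 16.3 and 13.2 CPM in WT astrocytes and 11.5, 7.67 and 15.3 CPM in KIN astrocytes, and at 4.48, 0.496 and 2.98 CPM in WT microglia and 0.397, 0.359 and 0 CPM in KIN microglia. Its call was lost in 11 of 21 alternatives. Between neurons and astrocytes they were *Scn8a* at 2.92 (adjusted p = 0.00734, 2.39 to 3.87), *Kcnab2* at 4.85 (adjusted p = 0.00216, 4.40 to 5.66) and *Ank3* at -3.04 (adjusted p = 6.98e-06). The *Kcnab2* value rests on 2 reads in WT neurons against 23 in KIN neurons. The *Ank3* value rests on WT replicate 2 of neurons, without which it was -0.05 (adjusted p = 0.994). With DESeq2 none of these differences passed. With 3 libraries in each group, no library was tested as an outlier.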

How the results depend on the processing

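In astrocytes the count of called channel genes was 11, and it was 6 with DESeq2 and 6 to 17 with a library left out, while 15 single transcripts of 10 genes were called. In microglia it was 1, and 0 with DESeq2, with a mean of at least 10 counts and for single transcripts, 2 with the filter taken over all 18 libraries, 4 with no filter or with all 18 libraries in one fit, and 0 to 4 with a library left out. In neurons it was 0 under each setting that could be fitted; a mean of at least 10 counts left no channel gene to test. Over all fractions the count of 12 became 5 with a mean of at least 10 counts and 15 with sums over the fractions. It was 4 to 13 with a replicate number of 1 genotype left out of all 3 fractions. For the difference of microglia from astrocytes, 2 became 0 with DESeq2, 1 with DESeq2 size factors, a mean of at least 10 counts or TMM without the 10 most abundant genes, and 0 to 3 with a library left out. For that of neurons from astrocytes, 1 became 0 with DESeq2 and 1 to 4 with a library left out.

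For WT neurons against astrocytes, 11 calls became 5 with a mean of at least 10 counts and 8 to 13 with a library left out; between the KIN groups there were 14, 7 lower and 7 higher, and *Kcnc1* (1.05), *Kcnq3* (0.27) and *Scn2b* (0.17) changed sign. Neurons against microglia went from 2 to 1 with DESeq2 or a mean of at least 10 counts, to 7 between the KIN groups (1 lower, 6 higher) and to 1 to 2 with a library left out. Astrocytes against microglia went from 10 to 6 with a mean of at least 10 counts and 5 to 12 with a library left out; between the KIN groups 4 were lower and 6 higher, and *Kcnq3* was at -0.02. The cause of these shifts was not tested.

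With the replicate number as a block the counts were 15 in astrocytes, 1 in microglia, 0 in neurons, 12 over all fractions, 2 and 1 for the differences between fractions, and 10, 3 and 10 between WT fractions. Same-numbered WT and KIN libraries had correlations of -0.08 to 0.06, against -0.07 to 0.09 for different numbers. Values this near 0 cannot show whether the numbers pair mice. Same-numbered WT astrocyte and microglia libraries had 0.06, 0.21 and 0.10, against -0.14 to 0.07 for different numbers; replicate 1 of each correlated slightly better with replicate 3 (0.07). For the other pairs of fractions, and in KIN, same numbers had -0.04 to 0.03. Over the values of single genes reported by name or used beside them, 660 kept direction and call, 147 kept direction only, 7 passed the criterion newly and 4 changed sign. The 6 neuronal libraries held 73 to 142 channel reads each, which limits what could be tested there.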
